A study of Mus musculus with 9 samples.

Results

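Collagen chain genes are the 44 rows, of 49510 in the count table, whose symbol is Col, a type number, the letter a and a chain number. They were taken by symbol alone, without a cut on measured values, but the family was chosen with earlier results of these data known. RNA was sequenced from regulatory T cells (Tregs) of Foxp3-GFP mice, in which a fluorescent protein marks cells that express Foxp3, the lineage factor of Tregs. All animals were 8 weeks old and had undergone cardiac ischemia/reperfusion (I/R) injury, a stop and return of blood flow, 3 days earlier. Tregs were taken from the injured heart, from the spleen and from the heart-draining mediastinal lymph node (MLN), with 3 libraries from each organ, and no group was without injury. Cells went through a magnetic and a flow cytometric sort, and their RNA was amplified with a kit for very small inputs. The labels do not say how many animals or cells a library holds.

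Collagens are proteins of the extracellular matrix in which chains from separate genes or copies of a single gene wind into a triple helix. Fibrillar collagens form the tensile cables of tissue, basement membrane collagens form sheets under endothelium and around muscle cells, and other classes bind, anchor or cap these structures. In the heart they are known chiefly as products of fibroblasts and vascular cells, and scar formation after injury depends on them.

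Upstream DNA is shown for 4 members that stand for the patterns described here: Col3a1, the member with the most counts; Col5a1, called in each comparison of the heart; Col8a1, with the widest range between heart libraries among members with counts in all of them; and Col23a1, the only member with a mean of at least 10 CPM (counts scaled to library size) in the MLN. Each is the 250 bases before the gene's start on its own strand, 5′ to 3′, from RefSeq on GRCm38.p6. The intervals are chr1:45311288-45311537 (plus strand) for Col3a1, chr2:27886175-27886424 (plus strand) for Col5a1, chr16:57754738-57754987 (minus strand) for Col8a1 and chr11:51289670-51289919 (plus strand) for Col23a1. None of these bases is in a GENCODE exon. Capitals mark the letters GGGCGG (the GC box, CCGCCC when read on the other strand) and TATAAA (the TATA box).
Col3a1: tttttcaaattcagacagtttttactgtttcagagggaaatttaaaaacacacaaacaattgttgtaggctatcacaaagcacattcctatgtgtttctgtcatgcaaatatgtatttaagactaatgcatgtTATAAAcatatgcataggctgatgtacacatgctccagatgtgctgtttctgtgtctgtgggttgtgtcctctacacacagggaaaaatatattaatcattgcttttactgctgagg
Col5a1: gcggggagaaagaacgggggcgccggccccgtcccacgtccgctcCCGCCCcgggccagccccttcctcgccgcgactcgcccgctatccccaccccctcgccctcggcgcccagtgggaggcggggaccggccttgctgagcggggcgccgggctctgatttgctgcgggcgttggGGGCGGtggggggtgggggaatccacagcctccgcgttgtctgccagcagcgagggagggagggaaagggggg
Col8a1: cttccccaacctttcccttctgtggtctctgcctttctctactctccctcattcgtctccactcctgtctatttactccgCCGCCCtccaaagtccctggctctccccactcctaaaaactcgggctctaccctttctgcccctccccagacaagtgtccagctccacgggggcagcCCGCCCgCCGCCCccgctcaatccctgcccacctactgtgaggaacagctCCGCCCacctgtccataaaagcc
Col23a1: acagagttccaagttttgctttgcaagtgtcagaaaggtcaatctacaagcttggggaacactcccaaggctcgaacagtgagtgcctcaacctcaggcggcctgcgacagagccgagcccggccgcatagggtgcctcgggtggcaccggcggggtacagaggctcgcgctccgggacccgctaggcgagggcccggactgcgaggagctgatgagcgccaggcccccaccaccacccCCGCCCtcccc
The Col3a1 window holds 1 TATA box and no GC box, while the Col5a1, Col8a1 and Col23a1 windows hold 2, 4 and 1 GC boxes. RefSeq promoters were matched for 35 of the 44 members, and 3 motifs were searched on both strands. The GC box was in 21 of 35 members (60%) and in 32.9% of 27025 promoters of the same length. CCAAT was in 12 of 35 (34.3%) against 34.5%, and TATAAA in 5 of 35 (14.3%) against 13.0%. These matches are descriptions of letters in a window and were not tested.

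Several members lie beside one another in the genome. Col4a1 (chr8:11198423-11312826, minus strand) and Col4a2 (chr8:11312805-11449287, plus strand), the main chains of basement membranes, start head to head, and their first exons share the 22 bases of chr8:11312805-11312826. These are given on the plus strand, with a GC box in capitals.
Col4a1 and Col4a2: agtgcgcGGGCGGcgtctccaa
The Col4a4 and Col4a3 starts are 71 bases apart and the Col4a6 and Col4a5 starts 1308 bases apart, also head to head. Col3a1 (chr1:45311538-45349706) and Col5a2 (chr1:45374321-45503282) lie end to end on chromosome 1 with 24.6 kb between them. Exons of 13 of the 44 members overlap an exon of another gene, and the strand setting of the counting is not given in the sources used here. Col3a1 overlaps a miRNA gene with 698 counts in all, and Col4a3 shares 563 exon bases with C430014B12Rik on the opposite strand, so the Col4a3 counts are uncertain.

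Libraries held 156194012 to 267520538 counts, and 1 library of each organ stood apart by its scaling factor, the highest of the organ: spleen 3 at 1.24, MLN 3 at 1.17 and heart 2 at 1.11. Foxp3, the gene the cells were sorted on, was between 31.1 and 187 CPM in the 6 lymphoid libraries and at 8.71, 37.9 and 0.239 CPM in heart 1, 2 and 3. Heart 3, labelled as Tregs, was therefore far below the rest for this marker. The 10 T cell and Treg markers together took 0.188% to 0.274% of counts in the heart and 0.498% to 0.670% in the lymphoid organs. CPM is a count divided by its library's scaled total and put on a common scale, so it compares libraries for 1 gene, and genes are compared only per length, in RPKM.

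Collagen chain genes were detected mainly in the heart libraries. In heart 1, 2 and 3, 24, 29 and 24 of the 44 members had at least 1 count, against 3, 9 and 15 in the spleen libraries and 8, 5 and 10 in the MLN libraries. The share of all table rows with a count was much closer between libraries, at 29.4% to 37.5%. Every heart library held 21 members (47.7%), against 26.5% of all rows. Of the members, 10 (22.7%) had counts in every heart library and none in any lymphoid library, a pattern found in 0.988% of all rows. No member had counts in all 6 lymphoid libraries. Another 10 members, among them the cartilage chains Col2a1, Col9a1 and Col9a2, were at 0 in all 9 libraries. By counting error alone, a 0 allows up to 3 counts in a library.

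Summed over the 44 members, collagen took 0.227%, 0.148% and 0.0560% of counts in heart 1, 2 and 3. The spleen libraries were at 0.000392%, 0.00073% and 0.00776%, and the MLN libraries at 0.00562%, 0.00594% and 0.00643%. Heart libraries were all above lymphoid libraries, and spleen 3 was above the other spleen libraries. The heart mean was 0.144% ± 0.0856 (SD, n = 3) and the mean of the 6 lymphoid libraries 0.00448% ± 0.00312 (SD, n = 6). The ratio of geometric means was 44.2-fold (two-sided exact permutation test, p = 0.0238, the smallest 3 against 6 can give). Against the spleen alone it was 94.7-fold and against the MLN alone 20.6-fold, each with an exact permutation p of 0.1, the smallest that 3 against 3 allows. The log2 ratio to the spleen, 6.565, was 5.70 without spleen 1 and 7.85 without spleen 3. The MLN share was 4.59-fold the spleen share, with overlapping libraries (exact permutation p = 0.4); on the log2 scale this is 2.20, and it was 1.33 without spleen 1 and 3.48 without spleen 3. In sorted bulk samples, fewer cells of a type and less RNA per cell cannot be told apart.

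**Figure D1:**
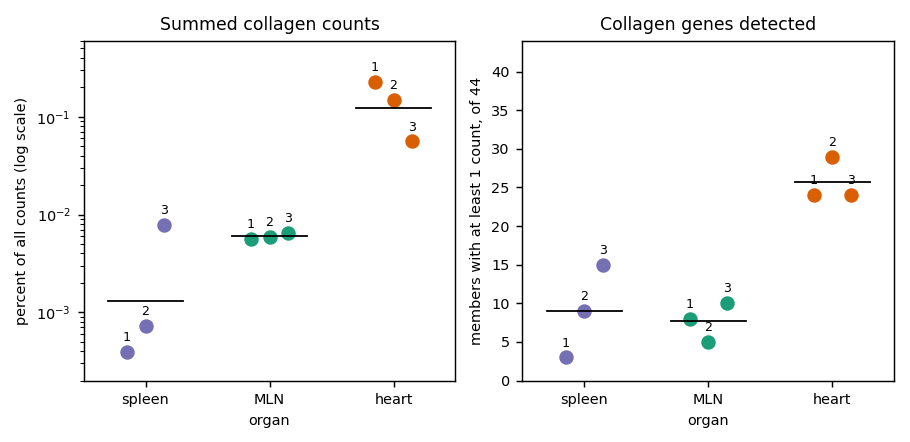
Left, percent of all counts in the 44 collagen chain genes in each library (log axis); right, number of members with at least 1 count; points are libraries with their replicate number, and lines are geometric means (left) or means (right). The heart libraries lie between 0.0560% and 0.227%, above all 6 lymphoid libraries, and hold 24 to 29 members.

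Heart was compared with the mean of spleen and MLN in a single edgeR model over 16609 genes, of which 27 were members. The other 17 members did not pass the filter on low counts. In this comparison 14 members rose in the heart and none fell (edgeR quasi-likelihood test, Benjamini-Hochberg adjusted p below 0.05); of all tested genes 4.94% were called higher in the heart. The 14 were Col1a1, Col3a1, Col5a1, Col5a2, Col5a3, Col4a1, Col4a2, Col4a5, Col6a1, Col6a2, Col6a3, Col8a1, Col16a1 and Col18a1, and 9 of them had no count in any lymphoid library. These 9 passed the filter through the heart libraries alone. Like any gene with no lymphoid count, they could only be called higher in the heart or not at all. Heart libraries lay wholly above all lymphoid libraries for 19 of 44 members (9.46% of tested genes), and for no member wholly below. Over all 44 members, detected or not, the median difference between heart and lymphoid organs in log2(mean CPM + 1) was 2.20. The median over all rows was 0, but most rows had no count in a given library. That 0 reflects undetected rows, so it gives no background for the 2.20. Differences among tested genes are read against a median log2 change of 0.11 in this comparison.

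These calls rest on few libraries. Without heart 1, heart 2, heart 3 or MLN 1, 3, 5, 6 and 9 members were called, and 160, 318, 223 and 423 of all genes. Without spleen 3, MLN 3 and heart 2 together, none of the 14 members was called, and 81 of all genes were.

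**Figure D2:**
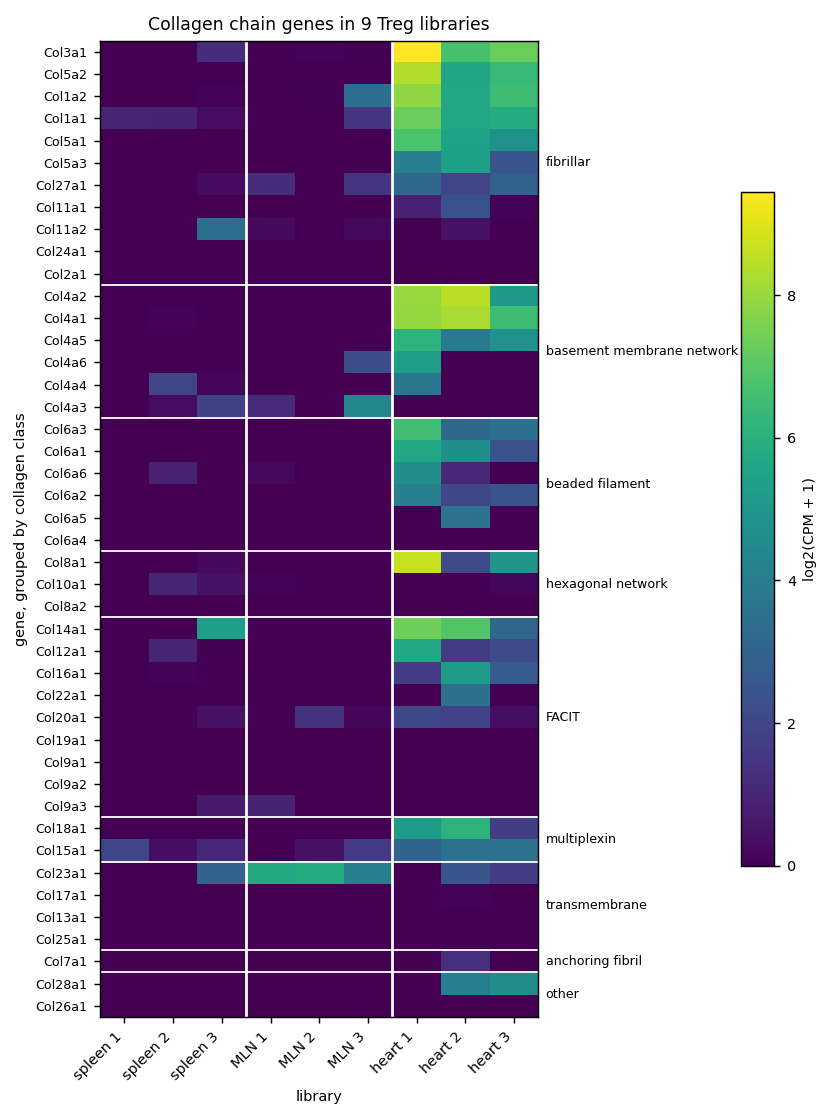
Level of each of the 44 collagen chain genes in each of the 9 libraries, as log2(CPM + 1), with genes in rows grouped by collagen class and ordered by heart mean, and white lines between organs and classes. The colour is concentrated in the 3 heart columns; Col23a1 is the row with its highest levels in the MLN, and 10 rows are at 0 throughout.

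Fibrillar collagens gave 5 calls among 11 members. Col3a1, the chain of type III collagen in pliable fibrils, was at 698, 103 and 156 CPM in heart 1, 2 and 3. It was at 0, 0 and 1.35 CPM in the spleen and at 0, 0.072 and 0.0309 CPM in the MLN. All heart libraries were far above all lymphoid ones, and heart 1 was the highest. Its log2 change was 11.31 (SE 2.16, edgeR adjusted p = 0.0243), an average of the log ratios to each organ. The ratio of the heart mean CPM to the lymphoid mean, a different quantity, was 1314-fold with all libraries and 15510-fold without spleen 3.

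The chains of type I collagen, the main fibril of scar, differed in their calls. Col1a1 was at 158, 48.5 and 56.9 CPM in the heart libraries, at 0.976, 0.868 and 0.231 in the spleen and at 0.024, 0 and 1.74 in the MLN. Its groups did not overlap, and its log2 change was 7.11 (SE 1.64, edgeR adjusted p = 0.0429). Col1a2 was at 231, 50.3 and 87.9 CPM in the heart and at most 0.0586 CPM in 5 lymphoid libraries, but at 9.95 CPM in MLN 3. The Col1a2 libraries also did not overlap, but the test did not pass (log2 change 8.68, SE 2.15, edgeR adjusted p = 0.0549). Per length, Col1a1 exceeded Col1a2 by 1.30, 1.83 and 1.23 times in heart 1, 2 and 3. The lengths join all annotated exons of a gene, 6563 bases for Col1a1 and 12426 for Col1a2. Before division by length Col1a2 was the higher in each heart library, so the direction rests on these lengths.

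Type V chains nucleate fibrils of type I. Col5a1 was at 108, 42.2 and 28.1 CPM in the heart, and Col5a2 at 324, 46.9 and 79.5 CPM. Neither had a count in any lymphoid library. Heart means were therefore at least 4285-fold and at least 10840-fold the floor of 3 counts per lymphoid library (edgeR adjusted p = 0.00836 and 0.0096). This floor, here and below, covers counting error only. Libraries of 1 organ could differ far more (Col4a6 counts were 6693, 0 and 0 in heart 1, 2 and 3), so these folds are not firm lower limits. Col5a3, a rarer chain of this type, was at 16.5, 39.5 and 4.57 CPM in the heart and 0 elsewhere (adjusted p = 0.0174). Per length, Col3a1 was 2.10, 2.13 and 1.92 times Col5a2 in heart 1, 2 and 3, a steadier ratio than Col5a1 to Col5a2 (0.376, 1.02 and 0.399). The other fibrillar genes were low: Col27a1 was at 2.94 to 8.22 CPM in the heart and Col11a1 at 0.0631 to 4.15, and Col11a2 had its highest value, 9.70 CPM, in spleen 3.

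Basement membrane collagens gave 3 calls among 6 members. Col4a1 was at 247, 306 and 89.6 CPM in heart 1, 2 and 3, and its only lymphoid counts were in spleen 2, at 0.0708 CPM. Col4a2 was at 253, 357 and 33.1 CPM in the heart and 0 in all lymphoid libraries. Heart 2 was the highest library for both. Of the 14 called members, heart 1 was the highest library for 9 and heart 2 for 5 (Col4a1, Col4a2, Col5a3, Col16a1 and Col18a1), so neither class kept to 1 library. Both were called (edgeR adjusted p = 0.009 for Col4a1 and 0.0104 for Col4a2), and the heart mean of Col4a2 was at least 15470-fold the floor. Per length, the ratio of Col4a1 to Col4a2 was 0.864, 0.759 and 2.40 in heart 1, 2 and 3.

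The other type IV chains are made in fewer tissues. Col4a5 was at 67.6, 14.2 and 26.5 CPM in the heart and 0 in lymphoid libraries, a mean at least 2602-fold the floor (edgeR adjusted p = 0.0112). Its neighbour Col4a6 was found in heart 1, at 37.3 CPM, and in MLN 3, at 3.67 CPM, and in no other library. Col4a4 was at 12.0 CPM in heart 1 and 2.91 CPM in spleen 2, while Col4a3 had no heart count and reached 19.4 CPM in MLN 3. These last 3 genes were each led by 1 library; Col4a3 and Col4a4 were not called, and Col4a6 did not pass the filter on low counts.

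Type VI chains form beaded filaments around cells, and 3 of 6 members of this class were called. Col6a1 was at 48.1, 25.0 and 4.26 CPM in heart 1, 2 and 3. Col6a2 was at 16.5, 3.06 and 4.48 CPM. Col6a3 was at 92.9, 7.91 and 9.89 CPM. All 3 were at 0 in the 6 lymphoid libraries, and their heart means were at least 1858-fold, 577-fold and 2660-fold the floor (edgeR adjusted p = 0.0171, 0.0248 and 0.0198). Per length, Col6a1 exceeded Col6a2 by 5.55, 15.5 and 1.81 times in heart 1, 2 and 3. These ratios use joined exon lengths of 4380 bases for Col6a1 and 8326 for Col6a2. In heart 3 the CPM of Col6a1 was below that of Col6a2, so the excess there rests on the lengths. The alternative chains Col6a5 and Col6a6 were led by heart 2 (11.0 CPM) and heart 1 (24.6 CPM), and Col6a4 had no count.

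**Figure D3:**
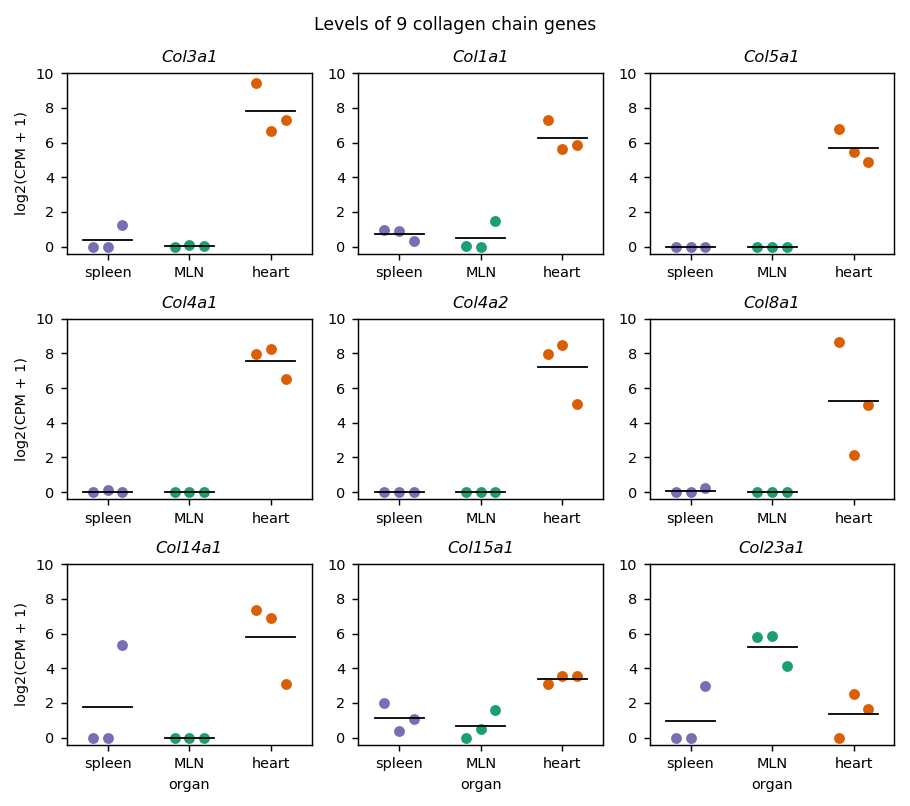
Levels of 9 collagen chain genes in log2(CPM + 1) by organ; points are libraries in replicate order from left to right, and lines are means of the log values. Heart libraries lie above all lymphoid libraries for each gene but Col14a1, where spleen 3 reaches 38.8 CPM, and Col23a1, where the MLN is highest.

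Network-forming and fibril-associated members gave 1 call each. Col8a1, a short-chain collagen of vessel walls, was at 403, 3.45 and 31.0 CPM in heart 1, 2 and 3, a 117-fold range, and its only lymphoid counts were in spleen 3, at 0.179 CPM. It was called all the same (edgeR adjusted p = 0.0303). Col16a1 was the only 1 of 9 fibril-associated members (the FACIT class, which coat fibrils) to be called, at 2.22, 35.8 and 5.63 CPM in the heart and 0.066 CPM in spleen 2 (adjusted p = 0.0354). For Col16a1 heart 2 was the highest library and for Col8a1 heart 1.

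Col14a1, a fibril-associated chain, was at 165, 117 and 7.65 CPM in the heart and 38.8 CPM in spleen 3, with 0 in the other 5 lymphoid libraries. Heart 3 was below spleen 3, so its groups overlapped and it was not called (edgeR adjusted p = 0.156); without spleen 3 it was (adjusted p = 0.0281). Col12a1, of the same class, was at 49.5, 2.11 and 3.55 CPM in the heart and at 0.962 and 0.0276 CPM in spleen 2 and 3. It did not overlap, and its adjusted p was 0.0628. Col22a1, below the filter, had counts in heart 2 alone, at 10.3 CPM.

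Multiplexins sit at the rim of basement membranes, and Col18a1, the source of endostatin, was called. It was at 36.1, 67.2 and 2.27 CPM in the heart and 0 in lymphoid libraries, at least 2538-fold the floor (edgeR adjusted p = 0.0215). Col15a1 was at 7.36, 10.6 and 10.6 CPM in the heart, a 1.45-fold range. It was at 2.93, 0.297 and 1.13 CPM in the spleen and 0, 0.382 and 2.02 CPM in the MLN. Its heart libraries lay above the rest, but the test did not pass (adjusted p = 0.326). Col28a1, an outlying collagen of peripheral nerve, was at 0, 16.1 and 24.3 CPM in the heart and 0 elsewhere, so heart 1, highest for many members, lacked it, and it was not tested because it did not pass the filter.

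Per length, the heart order began with Col3a1 at 32.5 RPKM, Col4a2 at 32.4, Col4a1 at 28.7, Col8a1 at 18.6, Col5a2 at 15.7, Col14a1 at 13.8, Col1a1 at 13.4 and Col1a2 at 9.90 (means of n = 3). For all 31 neighbouring pairs in this order of 32 members, the ranges over heart libraries overlapped. The order of neighbours is therefore not resolved, and it also depends on the joined exon lengths used.

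The makeup of the collagen counts differed between heart libraries. Fibrillar genes took 51.3%, 25.3% and 62.2% of collagen counts in heart 1, 2 and 3, and basement membrane genes 20.5%, 50.7% and 22.1%. Heart 2, which stood apart, was the library with more basement membrane than fibrillar counts. Its first 3 genes were Col4a2, Col4a1 and Col14a1, while heart 1 had Col3a1, Col8a1 and Col5a2 and heart 3 had Col3a1, Col4a1 and Col1a2. Among lymphoid libraries, Col23a1 took 93.4% and 96.5% of collagen counts in MLN 1 and 2 and Col14a1 62.1% in spleen 3. Shares of counts are not corrected for gene length.

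**Figure D4:**
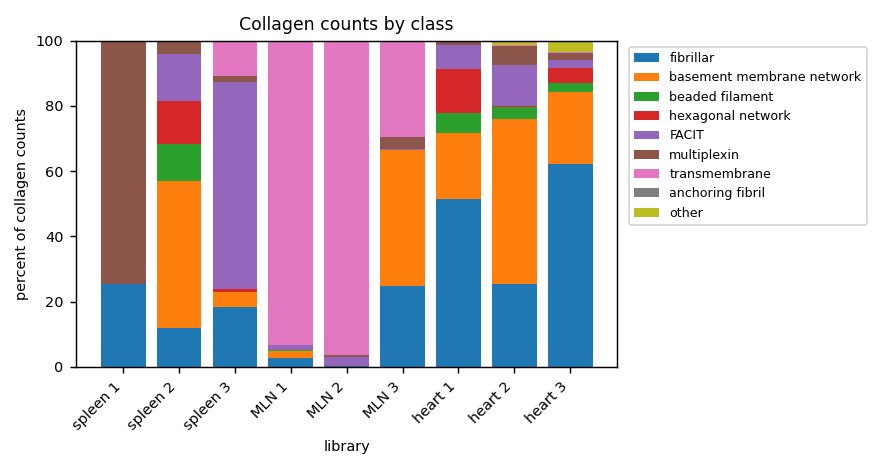
Percent of collagen counts in each collagen class, by library, as stacked bars that sum to 100%. Fibrillar genes lead in heart 1 and 3, basement membrane genes in heart 2, and the transmembrane class, through Col23a1, in MLN 1 and 2; bars of lymphoid libraries rest on 612 to 18139 counts and those of heart libraries on 149718 to 540182.

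Against each lymphoid organ alone, fewer members passed. The comparisons share the heart libraries and are not independent. Heart against spleen called Col4a2, Col5a1 and Col5a2 (edgeR adjusted p = 0.0485, 0.0399 and 0.0456), 3 of 44 members, where 0.614% of tested genes were called higher in the heart. Heart against MLN called 5, Col4a1, Col4a2, Col4a5, Col5a1 and Col5a2 (adjusted p from 0.0333 to 0.0419), where 1.1% were called higher. No member was called lower in either comparison, and members with no lymphoid count could not have been. Libraries did not overlap, with the heart higher, for 19 members against the spleen (12.4% of tested genes) and for 20 against the MLN (14.9%). The 3 calls against the spleen were all lost without any 1 heart or spleen library, and 1 remained without MLN 1 or MLN 2. All 5 against the MLN were lost without any 1 heart or MLN library. Without the 3 libraries that stood apart, both counts were 0, and 3 of all genes were called against the spleen and 4 against the MLN.

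Between MLN and spleen no member was called by edgeR, and 0% of all tested genes were. Unadjusted edgeR p was below 0.05 for 3 members (5.75% of tested genes), Col1a2 higher and Col12a1 and Col14a1 lower in the MLN. DESeq2 called these 3, with 779 of 16609 genes called in all, and limma-voom called no member. Each was led by 1 lymphoid library: Col1a2 by MLN 3 (9.95 CPM), Col12a1 by spleen 2 (0.962 CPM) and Col14a1 by spleen 3 (38.8 CPM). Col23a1, a transmembrane collagen with a shed ectodomain, was at 53.8, 56.8 and 16.3 CPM in the MLN, 0, 0 and 6.77 CPM in the spleen and 0, 4.66 and 2.08 CPM in the heart. All MLN libraries were above all others, which for MLN against spleen held for this member alone (4.53% of tested genes). Col23a1 did not pass against the spleen (log2 change 4.22, SE 2.97, edgeR adjusted p = 1) or in the heart against the MLN (log2 change -4.23, SE 2.97, adjusted p = 0.608). The other members with lymphoid counts and no heart count were Col4a3 and Col9a3. Col4a3 was at 0, 0.25 and 2.68 CPM in the spleen and 1.23, 0 and 19.4 CPM in the MLN, and Col9a3 stayed below 1 CPM throughout.

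Genes that make and use collagen were read from 3 lists, of which 16 of 20, 8 of 13 and 6 of 11 genes passed the filter and were tested; counts of these and of the marker lists stand beside 4.94% of all tested genes called higher in the heart. Of 20 genes for modification and folding of chains in the endoplasmic reticulum, 5 rose in the heart against both lymphoid organs (edgeR adjusted p below 0.05) and none fell. These were Serpinh1, the collagen chaperone Hsp47 (24.3, 16.6 and 10.5 CPM in heart 1, 2 and 3), the prolyl hydroxylase P4ha2 (19.2, 12.5 and 9.17), the glycosyltransferase Colgalt2 and the foldases Fkbp10 and Fkbp14. Apart from Serpinh1 at 0.263 CPM in spleen 1, the 5 genes had no lymphoid count, as had 8 of the 20 in all. Genes without a lymphoid count, in this and the following lists, could only be called higher in the heart or not at all. The list's 3 genes with the highest heart mean CPM, a scale not corrected for length, were Ppib, P4hb and P4ha1, which serve many secreted proteins and did not pass (adjusted p = 0.703, 0.353 and 0.721).

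Enzymes that cleave procollagen and cross-link fibrils gave 5 calls among 13, with none lower. Of the 13, 7 had no lymphoid count and could not have been lower. Adamts2, which removes the amino-terminal propeptide, was at 74.5, 74.9 and 39.3 CPM in heart 1, 2 and 3 and at 0 elsewhere. Loxl1, a cross-linking oxidase, was at 89.2, 34.5 and 31.3 CPM and also at 0 elsewhere. Both passed against both organs together (edgeR adjusted p = 0.00713 and 0.00792) and against each alone. Loxl3, Pcolce and Pcolce2 were the other calls. Lox, the third by heart mean CPM, was at 70.9, 18.7 and 6.21 CPM in the heart and 3.52 CPM in MLN 3 (adjusted p = 0.108).

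Collagen receptors gave 3 calls among 11. Itgb1, the shared beta chain of collagen-binding integrins, was at 435, 373 and 469 CPM in the heart and 121 to 221 CPM in the lymphoid libraries (log2 change 1.61, SE 0.26, edgeR adjusted p = 0.0148). Unlike any collagen chain, it was well above 0 in every library. Itga1, its alpha partner, was at 46.7, 82.3 and 26.0 CPM in the heart and at most 0.698 CPM elsewhere (adjusted p = 0.0445). Mrc2, an endocytic collagen receptor, was at 5.94, 3.58 and 0.537 CPM in the heart and 0 elsewhere (adjusted p = 0.0354). The inhibitory receptor Lair1 did not pass (adjusted p = 0.0779).

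Summed marker lists of cells other than Tregs were also higher in the heart libraries. Among these libraries, not all lists had the order of the summed collagen share. The 14 fibroblast markers, collagens left out, took 1.71%, 0.318% and 0.428% of counts in heart 1, 2 and 3, against 0.00136% to 0.0047% in lymphoid libraries. All 14 were tested, of which 11 rose in the heart against both lymphoid organs and none fell (edgeR adjusted p below 0.05), and 3 were at 0 in all lymphoid libraries. Dcn, a fibroblast proteoglycan, was at 16200, 2160 and 3786 CPM in heart 1, 2 and 3 and at most 4.67 CPM elsewhere. It dominated the sum, with 2906012, 543819 and 839464 heart counts against 360040, 37179 and 108639 for Mgp, the next highest. By CPM, Dcn, Lum, Postn, Mfap5, Fbln2, Mgp and Fstl1 had the library order 1, 3 and 2. Bgn, Dpt, Tcf21, Pi16, Fbln1, Thy1 and Pdgfra had other orders. By share of all counts, the order of heart libraries for the fibroblast list was 1, 3 and 2 from the top. Members were ordered by CPM, which also uses the scaling factors (0.754, 1.11 and 0.829 in heart 1, 2 and 3). These scales can order the libraries differently, so list and member orders are not matched to each other. By CPM, 7 of the 14 called members (Col1a1, Col3a1, Col5a2, Col4a5, Col6a2, Col6a3 and Col8a1) had the order 1, 3 and 2. The other 7 had other orders. Col5a1 and Col6a1 had the order 1, 2 and 3, and Col16a1 the order 2, 3 and 1. Col4a1, Col4a2, Col5a3 and Col18a1 had the order 2, 1 and 3. By share of all counts, the endothelial list, the pericyte and smooth muscle list and the summed collagen counts had the order 1, 2 and 3. Summed collagen CPM had this order too (3010, 1334 and 675), while the lists were not ordered by CPM. The share of all tested genes with each order was not counted.

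Pericyte and smooth muscle markers took 0.0212%, 0.0198% and 0.00422% of counts in heart 1, 2 and 3 and at most 0.000628% elsewhere; 3 of 10 rose (7 tested), 5 were at 0 in all lymphoid libraries and 1 in all heart libraries. Rgs5, a pericyte gene, was at 142, 93.0 and 29.9 CPM in the heart and 0 elsewhere. Endothelial markers took 0.101%, 0.055% and 0.0434% in heart 1, 2 and 3 against 0.0092% to 0.027% elsewhere (2 of 10 rose, all tested). Schwann cell markers were at 0.0211%, 0.0128% and 0.0464% in heart 1, 2 and 3 and at most 0.000625% elsewhere (3 of 6 rose, all tested). Cardiomyocyte markers were at 0.0103%, 0.0198% and 0.036% in heart 1, 2 and 3 against 0.000658% to 0.00543% elsewhere (5 of 10 rose, 8 tested). Macrophage markers were at 0.687%, 0.626% and 0.913% in heart 1, 2 and 3 against 0.0224% to 0.306% elsewhere (6 of 10 rose, all tested). Of 6 lymphoid stroma markers, at 0.0139% to 0.0329% in the heart and 0.000542% to 0.00338% elsewhere, Pdpn rose and Cr2 fell. No other gene of these lists fell except Ikzf2, of the T cell and Treg list. The part of these cells in the collagen counts was not tested.

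**Figure D5:**
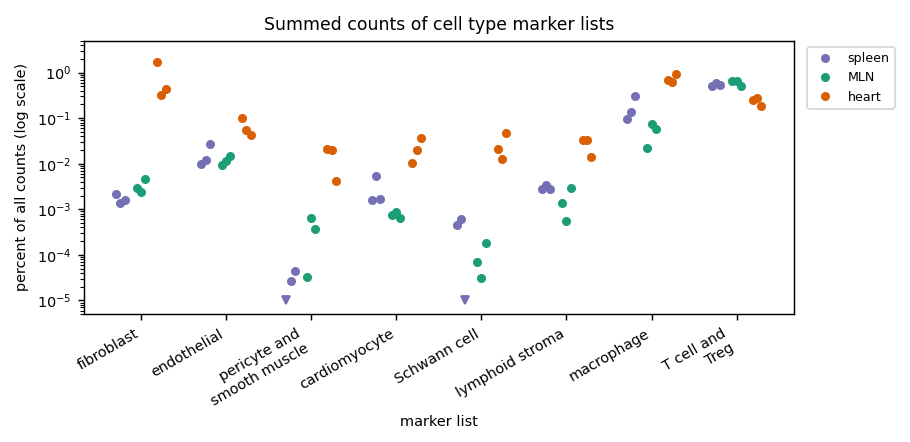
Percent of all counts (log axis) in each marker list, with 1 point per library, grouped by organ; triangles stand for a library with no count, drawn at the bottom of the axis. Fibroblast markers are at 0.318% to 1.71% in the heart; they and each other list are higher in all heart libraries than in all lymphoid libraries, except T cell and Treg markers, which are lower in all of them.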

How the data were processed

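The authors deposited raw read counts per gene for 9 libraries, 1 column each. The submitters' processing notes name CASAVA 1.8.2, HISAT2, HTSeq 0.6.0 and mm10. Strand setting and annotation release: not given in the sources used here. All 9 columns were used. Groups came from the sample titles. The labels name no separate animals, so a p-value reflects only spread among these samples, possibly technical.

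The test was edgeR 4.0.16 (R 4.3.3) on counts: filter at a minimum count of 10 (total 15), TMM scaling, 1 quasi-likelihood model over all libraries with 6 residual degrees of freedom, two-sided tests, Benjamini-Hochberg adjustment over 16609 genes, calls below 0.05. The median biological coefficient of variation was 102%. Code was tested on simulated data. Summed shares were compared by exact permutation of libraries (SciPy 1.17.1). CPM used TMM totals, and RPKM the length of all exons of a gene in GENCODE vM21 (GRCm38), joined over its transcripts. This annotation held all 44 members. A joined length can exceed that of the transcripts present, so per-length ratios and orders of genes depend on it. Folds against empty groups use 3 counts per library as a floor, which covers counting error only, because amplified reads without molecular identifiers are not independent molecules. Each SE of a log2 change is the absolute change divided by the square root of the F statistic of its test, which itself reports no SE. A fitted change against an empty group depends on the prior count, so no SE is given for it. No replicates agreed within sampling noise.

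Members with at least 10 CPM in an organ or called in a comparison were named with the value in every library, and others by range or count; of pathway lists, called genes and the 3 highest by heart mean CPM were named. Members described beyond this rule (Col15a1, Col27a1, Col11a1, Col11a2, Col4a3, Col4a4, Col6a5, Col6a6, Col22a1, Col9a3, the members at 0), and the marker genes given as examples, were chosen after their values were seen. Members and lists were chosen with earlier results of these data known. Alternatives were other scalings and filters, DESeq2 1.42.0, limma-voom 3.58.1, a replicate block, organs fitted alone, each library left out and, chosen after seeing the data, spleen 3, MLN 3 and heart 2 left out together.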

Additional observations from a re-analysis of the deposited data

How the results depend on the processing

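Calls of members depended on the test and on single libraries. Members called in the heart against spleen (3 by edgeR) were 16 with DESeq2, 14 with limma-voom, 9 with both organs fitted alone, and 0 with the replicate block or without the 3 libraries that stood apart. Over all genes, in either direction, these settings called 1883, 1141, 292, 0 and 3, against 131 in the main fit. Tested were 16609 genes, but 15229 with both organs alone and 16983 without the 3 libraries. Against the MLN (5 by edgeR) they were 17, 16, 12, 0 and 0. Calls over all genes were here 2211, 1332, 548, 0 and 4, against 230 in the main fit, with 15338 genes tested when both organs were fitted alone. Between MLN and spleen DESeq2 called 3 members, with 779 of all genes, and the other alternatives called 0 members. Against both organs (14 by edgeR) the replicate block and leaving out the 3 libraries each gave 0, while DESeq2 gave 18, limma-voom 20 and other scalings or filters 13 to 14. Over all genes these settings called 1, 81, 2591, 1693 and 605 to 973, against 940 in the main fit. DESeq2 counts include Col4a3, lower in the heart, and DESeq2 gave no adjusted p for 4 members. Leaving out 1 library at a time gave 0 to 3 calls against the spleen, 0 to 6 against the MLN and 3 to 12 against both. The cause of these shifts was not tested; leaving libraries out also leaves fewer samples.

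Of 237 refits of the 14 members called against both organs, 158 stayed called, 79 lost the call and none reversed. Col23a1, not called in the heart against both organs (log2 change -2.12), ranged from -3.23 (without heart 2) to 3.84 (without spleen 3) with 1 library left out and was 2.51 without the 3 libraries that stood apart. The summed collagen share kept its direction in every alternative. Its log2 ratio against both organs (5.47) ranged from 4.90 to 6.04 with 1 library left out. Without a heart library its exact permutation p was 0.0714, the smallest possible there. Without the 3 libraries that stood apart the ratio was 6.003 with an exact permutation p of 0.133, again the smallest possible with the libraries left. The labels do not say whether replicate numbers pair the samples. Correlations of deviations ran from -0.127 to 0.114 between same-numbered libraries of different organs and from -0.142 to 0.239 between differently numbered ones. They cannot show whether libraries share an animal. With the replicate block 1 gene of all was called in the heart against both organs. Depth limits statements on members at 0 to about 3 counts in a library, and this covers counting error only.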
